A study of Homo sapiens with 27 samples.

Results

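Of the 3177 short hairpin RNAs (shRNAs) counted in a pooled kinome screen of 3 head and neck squamous cell carcinoma (HNSCC) lines, 163 (5.13%) were scarce in every line without any inhibitor. An shRNA was taken as scarce when its mean over the 3 DMSO plates was under 20 CPM (the count per 1000000 counts of its library) in each of UMSCC1, UMSCC8 and UMSCC25. Of these, 31 had 0 counts in all 27 libraries and are described apart. The other 132 had at least 1 count somewhere, and the values below are about them unless all 163 are named. These shRNAs were selected on their DMSO values, so the DMSO values are given as a description with no test, and the tests of members below compare plates with an inhibitor.

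Each of the 3 lines was transduced with the TRC1 kinome library, selected with puromycin and then divided among 9 plates. In each line, 3 plates received DMSO as the vehicle, 3 received gefitinib, which blocks the kinase of EGFR, and 3 received AZD8931, which inhibits EGFR and its relatives of the ErbB family. The treatment protocol gives 300 nM gefitinib and 30 nM AZD8931, whereas another field of the sample labels gives 1000 nM for both. The doses of the inhibitors therefore differ or are uncertain, and a difference between the inhibitors cannot be taken as one at matched doses. Cells were kept for 72 h with the agent and 72 h without it, and genomic DNA was taken at 144 h. The 9 plates of a line descend from 1 transduced and selected population, so p-values measure the spread between plates, which may be technical. Any difference between lines is a difference between 3 such populations.

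In a pooled screen, each cell carries an integrated lentiviral cassette that encodes an shRNA. The hairpin is processed by Dicer into a small interfering RNA, which guides the RNA-induced silencing complex to a matching transcript. The cassette stays in the genome and is copied at each division, so that the number of times it is read from genomic DNA stands for the share of cells that carry it. An shRNA can be scarce because its clone was poorly represented in the plasmid or viral pool, because few cells were transduced with it, or because cells carrying it were lost during selection and growth. The starting pool was not analysed here, and these cannot be told apart. The table lists clone identifiers without genes, so no target gene is given for any of the 163.

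Library totals ranged from 178406 to 559422 counts, so that 1 count was worth 1.79 to 5.61 CPM. A count of 0 allows up to 3 counts, or 5.36 to 16.8 CPM depending on the library. These limits, and the Wilson intervals below, cover counting error only, since reads of amplified DNA that carry no molecular identifier do not each stand for a cell. A mean just under 20 CPM thus rested on about 10 counts or fewer per plate in many libraries. UMSCC8 DMSO replicate 1 stood apart from the other 8 UMSCC8 libraries. It had 105 of the 132 scarce shRNAs at 0, against 37 to 60 in the others, and 328 shRNAs of the whole table at 0, although its total of 427180 counts was within the range of the line. This library entered the rule. Without it, 165 shRNAs met the rule, of which 150 were the same, 13 were lost and 15 were gained.

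The rule drew a line through a continuous range of abundance. In UMSCC1, 393 shRNAs had a DMSO mean under 20 CPM, in UMSCC8 257 and in UMSCC25 304. Of all 3177, 2668 were under this level in no line, 227 in exactly 1 line, 119 in exactly 2 and 163 in all 3. The 3 members nearest to the limit had a highest DMSO mean of 19.7 CPM each. The 3 shRNAs just outside had highest DMSO means of 20.03, 20.5 and 20.7 CPM, with smallest means of 6.44, 11.9 and 4.34 CPM in another line. At the other end, 28 of the 132 had DMSO means under 5 CPM in all 3 lines, and 65 had means under 10 CPM.

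The 132 shRNAs together held 11419 of 11777536 counts, or 0.0970% of all counts in the 27 libraries. Their summed count over 27 libraries ranged from 1 to 313 with a median of 66.5, against a median of 1884 over all shRNAs in the table. The median member was seen in 13 of 27 libraries. Only 5 of 132 (3.79%) were seen in every library, against 2416 of 3146 (76.8%) of all shRNAs with any count. At the low end, 41 were seen in 1 to 9 libraries, 5 of them in a single library.

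Their counts were also unevenly spread. The library with the most counts held a median of 23.7% of a member's counts, against 8.98% over all shRNAs with any count. In 22 members a single library held at least 50% of all counts, and 11 of these had 10 or more counts in all. None of the 3014 other shRNAs with any count reached 50%, the highest being 49.6%. A small total raises this share by itself, and the part of depth in it was not tested.

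The share of counts that went to the scarce shRNAs differed between libraries. It was 0.0645% to 0.116% of the counts in the 9 UMSCC1 libraries and 0.0664% to 0.109% in the 9 UMSCC25 libraries. In UMSCC8 it was 0.107% to 0.142% in 8 libraries and 0.0396% (95% Wilson interval 0.0340% to 0.0460%) in DMSO replicate 1. The number of the 132 at 0 counts was 68 to 88 in a UMSCC1 library and 59 to 82 in a UMSCC25 library. In UMSCC8 it was 37 to 60 in 8 libraries and 105 in DMSO replicate 1. Over the whole table the number at 0 was also lower in UMSCC8, with a median of 91 per library against 205 in UMSCC1 and 151 in UMSCC25. The median DMSO mean of the 132 was 3.62 CPM in UMSCC1, 5.67 CPM in UMSCC8 and 4.28 CPM in UMSCC25, against 140, 169 and 156 CPM over the whole table.

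Whether the scarce shRNAs were also scarce on plates that the rule did not use was read from the 6 plates with an inhibitor in each line. Of all 163, 151 (92.6%) had a treated mean under 20 CPM in UMSCC1, 145 (89.0%) in UMSCC8 and 154 (94.5%) in UMSCC25. Of the 132 with counts, these were 120 (90.9%), 114 (86.4%) and 123 (93.2%). In the whole table, 13.2%, 7.46% and 10.1% of shRNAs were under 20 CPM on the treated plates of these lines.

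Taking the 3 lines together, 103 of the 132 (78.0%) had treated means under 20 CPM in all 3. A further 19 reached 20 CPM in 1 line and 10 in 2 lines, and none did so in 3. From the other side, 166 shRNAs of the table were under 20 CPM on the treated plates of all 3 lines, 32 of which were not members. The median treated mean of the 132 was 3.61 CPM in UMSCC1, 7.53 CPM in UMSCC8 and 4.34 CPM in UMSCC25.

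At DMSO means of 10 to 20 CPM, members were under 20 CPM on treated plates more often, in value, than shRNAs scarce in fewer lines. Among shRNAs with a DMSO mean of 10 to 20 CPM in UMSCC1, 25 of 29 members (86.2%) were under 20 CPM on its treated plates, against 30 of 42 (71.4%) scarce in exactly 2 lines and 40 of 81 (49.4%) scarce in UMSCC1 only. In UMSCC8 these were 28 of 39 (71.8%), 9 of 38 (23.7%) and 5 of 25 (20%). In UMSCC25 they were 31 of 34 (91.2%), 26 of 44 (59.1%) and 24 of 46 (52.2%). The median treated means had the same order in every line, at 10.7, 12.8 and 20.8 CPM in UMSCC1, 12.2, 27.6 and 28.6 CPM in UMSCC8, and 10.3, 17.4 and 19.1 CPM in UMSCC25. UMSCC8 DMSO replicate 1, with 328 shRNAs of the whole table at 0, entered the DMSO means of UMSCC8. Its part in the UMSCC8 values was not tested.

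At lower DMSO levels the same order of the shares was seen in 3 of 6 combinations of line and level. For DMSO means of 5 to 10 CPM, the shares were 92.9%, 90.5% and 80.0% in UMSCC1 and 83.8%, 54.5% and 42.9% in UMSCC8, and for means under 5 CPM in UMSCC25 they were 100%, 95.8% and 71.4%. The other 3 had another order. For a DMSO mean of 5 to 10 CPM in UMSCC25, the shares under 20 CPM were 73.9%, 69.2% and 71.4%, and for a mean under 5 CPM in UMSCC1 they were 92.0%, 77.8% and 95.0%. For a mean under 5 CPM in UMSCC8 they were 98.2%, 100% and 75%, with 4 to 56 shRNAs behind each. These shares were not tested. Within the range of 10 to 20 CPM the median DMSO means were also not equal, at 16.7, 14.7 and 15.8 CPM in UMSCC1, 13.3, 14.7 and 15.3 CPM in UMSCC8, and 14.0, 15.4 and 15.0 CPM in UMSCC25.

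Few members became abundant on any treated plate. Only 2 had a treated mean of 50 CPM or more in any line, the highest being 70.8 CPM, and 4 members accounted for the 5 treated values of 100 CPM or more. With gefitinib, 19 members had a mean of at least 20 CPM in UMSCC1, 18 in UMSCC8 and 8 in UMSCC25. With AZD8931, these were 13, 17 and 11. Both means reached 20 CPM in 7, 7 and 4 members. A single member, TRCN0000000521 in UMSCC1, was at or above 20 CPM on all 6 treated plates of a line.

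Some of the scarce shRNAs were missing from a whole line. UMSCC25 had 0 counts in all 9 libraries for 22 of the 132, UMSCC1 for 12 and UMSCC8 for 5, and 29 of the 132 were missing in this way from at least 1 line. A count of 0 over the 9 libraries of a line allows a level of up to 0.742 CPM in UMSCC25, 0.772 CPM in UMSCC1 and 0.779 CPM in UMSCC8. Of these 29, 14 were missing from UMSCC25 only, 5 from UMSCC1 only and none from UMSCC8 only. A further 5 were missing from UMSCC1 and UMSCC25, 3 from UMSCC8 and UMSCC25, and 2 from UMSCC1 and UMSCC8.

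The shRNAs missing from UMSCC25 had a median of 18.5 counts, and up to 103, in the 18 libraries of the other 2 lines. Those missing from UMSCC1 had a median of 12.5 and up to 63 counts elsewhere, and the 5 missing from UMSCC8 had a median of 2 and no more than 7. At least 30 counts elsewhere were held by 8 of the 22 missing from UMSCC25 and by 3 of the 12 missing from UMSCC1. Absence from UMSCC8 was thus seen only among members that were nearly absent everywhere.

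Counts of a scarce shRNA appeared on 1 plate of a group alone more frequently, in share, than over the whole table. In 25 of 792 combinations of a member with a treated group of 3 plates (3.16%), 1 plate had at least 10 counts and the other plates had 0. Over the whole table this was so in 68 of 19062 combinations (0.357%), and the members made up 36.8% of these cases. The 25 cases fell on 22 members, 3 of which had more than 1 case. Among DMSO groups, 17 of 34 such cases were members, a number that the rule itself favours. In treated groups too, shRNAs chosen for low counts have more plates at 0, and the part of depth was not tested.

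The lines were compared on the 18 treated plates by edgeR's quasi-likelihood test, averaged over both inhibitors and adjusted over all shRNAs tested (Benjamini-Hochberg). Of the 163, 112 could be tested. The others were the 31 at 0 everywhere and 20 with fewer than 10 counts on these plates. Between UMSCC1 and UMSCC8, 14 of 112 (12.5%) passed an adjusted p of 0.05, against 31.6% of all shRNAs tested. They were 1 higher in UMSCC1 and 13 higher in UMSCC8, whereas 13.5% of all shRNAs were higher in UMSCC1 and 18.1% in UMSCC8.

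Between UMSCC1 and UMSCC25, 11 members (9.82%) passed, 5 higher in UMSCC1 and 6 higher in UMSCC25, against 28.3% of all (12.7% higher in UMSCC1 and 15.6% in UMSCC25). Between UMSCC8 and UMSCC25, 8 (7.14%) passed, all 8 higher in UMSCC8, against 15% of all (7.42% higher and 7.58% lower in UMSCC8). With only the 12 libraries of these 2 lines in the fit, 12 passed, 10 higher and 2 lower in UMSCC8. With the stricter filter filterByExpr 4 passed, and with DESeq2 7, 6 higher and 1 lower. The shares called among the members were thus below those of the whole table in each comparison. Members were chosen for low DMSO values in all 3 lines, and the treated plates come from the same populations. The lower shares are therefore fixed in part by the choice, and are not a result about the members. Leaving out 1 plate moved the count for UMSCC8 against UMSCC25 to 3 without UMSCC25 AZD8931 replicate 2, UMSCC8 AZD8931 replicate 2 or UMSCC8 gefitinib replicate 1. It was 4 without UMSCC25 gefitinib replicate 1 or 2 or UMSCC8 gefitinib replicate 2, and 5 without UMSCC25 AZD8931 replicate 3, UMSCC25 gefitinib replicate 3 or UMSCC8 AZD8931 replicate 3. The count between UMSCC1 and UMSCC25 was 7 without UMSCC25 AZD8931 replicate 3.

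The 33 calls fell on 22 members, 11 of which were called in 1 comparison and 11 in 2. The comparisons share plates, so these calls do not add up as separate evidence. UMSCC8 was the higher line in 21 calls and the lower line in 1. UMSCC1 was higher in 6 and lower in 19, and UMSCC25 higher in 6 and lower in 13. UMSCC8 DMSO replicate 1, with 105 of the 132 at 0 counts, entered the rule. A 0 there lowers a UMSCC8 DMSO mean, so the choice may favour shRNAs with more counts on other UMSCC8 plates. With members chosen without that library, fewer were called between UMSCC8 and UMSCC25, and 11 again between UMSCC1 and UMSCC25. Leaving out 1 treated plate also gave fewer calls between UMSCC8 and UMSCC25, at 3 to 7. The part of the choice of members in the order of the lines was not tested. In 12 of the 33 calls (36.4%) the 6 plates of one line did not overlap those of the other, against 892 of 2342 calls (38.1%) over all shRNAs. In 16 (48.5%) the lower line had 0 counts on all 6 plates, against 24 (1.02%) over all shRNAs, 16 of which were thus members. The members were chosen for low values, which brings plates at 0 with it.

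The higher line's level in these calls was itself low, with treated means of 6.17 to 70.8 CPM and a median of 17.9. It was under 20 CPM in 19 calls and at or above it in 14. The lower line never had a mean above 10.8 CPM.

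TRCN0000037566 was the member with the largest difference in favour of UMSCC8. On UMSCC8 plates it had 54.2, 23.2 and 11.2 CPM with gefitinib and 42.9, 17.9 and 29.6 CPM with AZD8931, 77 counts in all. It had 0 counts on all 6 treated plates of UMSCC25, and 0 on its DMSO plates as well, and only 3 counts on the treated plates of UMSCC1. With 0 taken as 3 counts over the 6 plates, UMSCC8 was 27.1-fold higher than UMSCC25. Such a fold leaves out the spread between plates and is not a lower bound. The log2 fold change of UMSCC8 against UMSCC25 was 6.67 ± 1.37 (SE, adjusted p = 0.00212 by edgeR).

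Against UMSCC1 the log2 fold change of TRCN0000037566 was -5.19 ± 1.25 (UMSCC1 against UMSCC8, SE, adjusted p = 0.00326 by edgeR). Every treated UMSCC8 plate was above every treated plate of the other lines. Its DMSO values in UMSCC8 were 0, 4.87 and 37.5 CPM.

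TRCN0000001611 had a similar order of lines with more spread. On UMSCC8 plates it had 56.7, 9.69 and 16.8 CPM with gefitinib and 10.1, 1.99 and 19.8 CPM with AZD8931, so that 1 plate held 23 of its 46 counts. It had 0 counts in all 9 UMSCC25 libraries, and UMSCC8 was at least 16.2-fold higher on the treated plates (adjusted p = 0.0104 by edgeR). On the treated plates of UMSCC1 it had 1 count, although UMSCC1 DMSO replicate 1 had 14 counts, or 30.4 CPM. The log2 fold change of UMSCC1 against UMSCC8 was -4.83 ± 1.38 (SE, adjusted p = 0.0111 by edgeR), with plates that overlapped.

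TRCN0000007054 had 0 counts on all 6 treated plates of UMSCC1 and 1 count on its DMSO plates. In UMSCC25 it had 31.9, 22.6 and 63.9 CPM with gefitinib and 9.25, 26.1 and 47.6 CPM with AZD8931, 87 counts in all. In UMSCC8 it had 24 counts, with a mean of 10.5 ± 6.66 CPM (SD, n = 6 plates). UMSCC1 was the only line without it on the treated plates. UMSCC25 was at least 29.3-fold higher than UMSCC1 and UMSCC8 at least 8.54-fold higher (adjusted p = 0.000369 and 0.00516 by edgeR).

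TRCN0000037827 had the same order of lines on the treated plates. It had 1 count over the 9 UMSCC1 libraries. In UMSCC25 it had 7.35, 55.3 and 70.1 CPM with gefitinib and 16.6, 37.0 and 36.4 CPM with AZD8931, a mean of 37.1 ± 23.3 CPM (SD, n = 6 plates). The log2 fold change of UMSCC1 against UMSCC25 was -6.15 ± 1.27 (SE, adjusted p = 0.000814 by edgeR). Against UMSCC8, where it had 30 counts on the treated plates, it was -4.31 ± 1.31 (SE, adjusted p = 0.0148 by edgeR). All 6 UMSCC25 plates were above all 6 UMSCC1 plates, while the UMSCC8 plates overlapped those of UMSCC1. Its DMSO means were 6.43 CPM in UMSCC25 and 2.44 CPM in UMSCC8.

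A pair of members are given as examples that were chosen after their values were seen. TRCN0000000521 had the highest treated mean of any member, in UMSCC1, with 60.6, 31.6 and 66.1 CPM with gefitinib and 156, 67.4 and 43.4 CPM with AZD8931. Its treated means were 70.8 ± 43.8 CPM in UMSCC1, 10.8 ± 9.03 CPM in UMSCC8 and 10.2 ± 12.2 CPM in UMSCC25 (SD, n = 6 plates). The UMSCC1 plates were all above those of both other lines, with a log2 fold change of 3.15 ± 0.86 against UMSCC25 and 2.96 ± 0.86 against UMSCC8 (SE, adjusted p = 0.00716 and 0.0100 by edgeR). On DMSO plates its order was different, with 6.51, 11.6 and 30.5 CPM in UMSCC1 and a mean of 19.4 CPM in UMSCC25. It was the only member whose higher level in UMSCC1 passed the test against both other lines.

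TRCN0000006331 had 46.6, 123 and 37.1 CPM with gefitinib and 11.1, 26.1 and 44.8 CPM with AZD8931 in UMSCC25, and 10 counts on the treated plates of UMSCC1. The log2 fold change of UMSCC1 against UMSCC25 was -3.66 ± 0.97 (SE, adjusted p = 0.00597 by edgeR). All 6 plates of UMSCC25 were above those of UMSCC1. Its DMSO means were 0.679 CPM in UMSCC1, 17.9 CPM in UMSCC8 and 7.17 CPM in UMSCC25. Its highest value, 123 CPM, was 1 of the 5 treated values of at least 100 CPM.

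The inhibitors were compared with each other within each line, since neither group of plates had entered the rule. Of the 163, 84 could be tested in UMSCC1, 106 in UMSCC8 and 82 in UMSCC25. By edgeR's quasi-likelihood test 0 members passed an adjusted p of 0.05 in any line, and 0 did so by DESeq2. Of all shRNAs tested, 0.0324% passed in UMSCC1, 0% in UMSCC8 and 0% in UMSCC25. The smallest adjusted p of a member was 0.202 in UMSCC1, 0.990 in UMSCC8 and 0.555 in UMSCC25.

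An unadjusted p under 0.05 was reached by 11 members in UMSCC1, 3 in UMSCC8 and 3 in UMSCC25. These are 13.1%, 2.83% and 3.66% of the members tested, against 14.4%, 4.97% and 8.06% of all shRNAs. The shares of counts held by the 132 overlapped between the inhibitors in UMSCC1 (0.0936% to 0.116% with gefitinib, 0.0761% to 0.0955% with AZD8931) and in UMSCC8 (0.116% to 0.139% and 0.108% to 0.142%). In UMSCC25 they did not overlap, with 0.0720% to 0.0860% with gefitinib and 0.0890% to 0.109% with AZD8931.

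The members with the smallest unadjusted p for either direction did not pass the adjusted threshold. TRCN0000000586 had 43.5, 21.1 and 67.9 CPM with gefitinib in UMSCC1 and 0, 3.75 and 1.89 CPM with AZD8931, or 69 counts against 2. The plates did not overlap, and the log2 fold change was 4.35 ± 1.51 (SE, adjusted p = 0.202 by edgeR). Its DMSO plates in UMSCC1 had 2.17, 23.2 and 26.5 CPM. In UMSCC8 its order was the opposite in value, with 2.46, 38.7 and 5.61 CPM with gefitinib and 30.3, 41.8 and 55.3 CPM with AZD8931, and there the plates overlapped.

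TRCN0000003217 had 41.7, 0 and 34.0 CPM with gefitinib in UMSCC1 and 0 counts on its AZD8931 and DMSO plates. With counts pooled over the 3 plates and 0 taken as 3 counts, gefitinib was 11.3-fold higher than AZD8931. The log2 fold change was 6.41 ± 2.44 (SE, adjusted p = 0.244 by edgeR). The plates overlapped, since gefitinib replicate 2 was also at 0. All 41 counts in this line came from 2 plates. In UMSCC25, by contrast, this shRNA was seen on 8 of 9 plates at low values.

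For the other direction, TRCN0000037706 had 3.79, 0 and 0 CPM with gefitinib in UMSCC1 and 80.2, 41.2 and 3.78 CPM with AZD8931, with a log2 fold change of -4.97 ± 1.74 (SE, adjusted p = 0.205 by edgeR). The groups overlapped, and AZD8931 replicate 1 held 33 of its 46 counts with AZD8931. The log2 fold change was -3.82 without that plate and -7.31 without gefitinib replicate 1, whose 2 counts were the only ones with gefitinib. TRCN0000002187 had 0 counts with gefitinib in UMSCC8 and 17.7, 25.9 and 13.8 CPM with AZD8931. With counts pooled over the 3 plates and 0 taken as 3 counts, gefitinib was 7.05-fold lower. The log2 fold change was -6.07 ± 2.21 (SE, adjusted p = 0.990 by edgeR). The plates did not overlap in value. On gefitinib replicate 3, however, a count of 0 allows up to 16.8 CPM, which is above the lowest AZD8931 value. In UMSCC25 it had 0 counts on all 6 treated plates.

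Whether the difference between the inhibitors itself differed between lines was tested as an interaction on the 18 treated plates. By edgeR 0 members passed, against 3.07% of all shRNAs for UMSCC1 against UMSCC25 (2.5% with a larger gefitinib-minus-AZD8931 difference in UMSCC1 and 0.576% with a smaller one), 0% for UMSCC1 against UMSCC8 and 0% for UMSCC8 against UMSCC25. The smallest adjusted p of a member was 0.0769, 0.177 and 0.967. An unadjusted p under 0.05 was reached by 14, 9 and 3 of the 112 members tested, against 19.2%, 14.4% and 3.97% of all shRNAs, and DESeq2 called 1 member for UMSCC1 against UMSCC25.

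The inhibitors are not compared with DMSO by a test here, since low DMSO values chose the members. Of the 132, 8 had 0 counts on all 9 DMSO plates, and 2 had 0 on all 18 treated plates. The rule favours 0 on DMSO plates and the numbers of plates differ, so the 8 and the 2 cannot be compared. All of the 8 but TRCN0000002141, with 51 counts, had only 1 to 6 counts in all.

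Clone identifiers of the library carry a running number, and clones made to the same transcript often have neighbouring numbers. Among members with an adjacent number in the table, 19 of 160 (11.9%) had a neighbour that was also a member, against 261 of 2973 (8.78%) of the other shRNAs. Most members stood alone, with 144 single numbers, 5 runs of 2 and 3 runs of 3. The shRNAs next to a member had a median DMSO mean of 116 CPM, against 173 CPM over all that were not members. Members that share a target cannot be recognised from the table, and neighbours may share one.

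The share of clones that were members varied along the numbering, from 1.52% of the clones numbered 40001 to 200000 to 9.19% of those numbered 20001 to 30000. The 31 shRNAs at 0 everywhere included 12 in the numbers 30001 to 40000, or 2.20% of 545 clones. None of the 31 was next to another of them, and 3 were next to a scarce shRNA with counts.

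The shRNAs that the study assigns to the TGFβ receptors, which bind TGFβ ligands and signal through SMAD proteins, were not members. Of the 6, TRCN0000039774 came nearest, with DMSO means of 83.1 CPM in UMSCC1, 7.35 CPM in UMSCC8 and 14.4 CPM in UMSCC25. TRCN0000040008 was under 20 CPM in UMSCC25 alone, with means of 47.1, 167 and 12.9 CPM in the same order. The other 4 were above 20 CPM in every line.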

How the data were processed

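Cassettes amplified from genomic DNA were sequenced on an Illumina instrument, and the authors deposited their raw counts per shRNA in 1 table. The submitters' processing notes name Bowtie 1.0.0, edgeR and hg19, and the methods cite BiNG!S. No normalization had been applied. The labels gave the line, the agent and the replicate number of each plate. The members and tests were chosen with earlier results of these data known.

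CPM was the count over the library total. The quasi-likelihood test of edgeR 4.0.16 (R 4.3.3, robust glmQLFit and glmQLFTest) used TMM normalization and shRNAs whose counts in a fit added up to at least 10, with Benjamini-Hochberg adjustment over all shRNAs tested. The inhibitors were compared in the 9 libraries of a line, and the lines in the 18 treated libraries. Standard errors were derived from the quasi-likelihood F. The fit was tested on simulated data.

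Alternatives were RLE size factors, total counts, other filters, DESeq2 1.42.0, a replicate block, fewer libraries, and limits of 10 and 40 CPM. Leaving out UMSCC8 DMSO replicate 1 from the choice of members for the comparisons of lines, and from the fit that compares the inhibitors in UMSCC8, was added after the data were seen. Replicate pairs differed by more than sampling noise (reduced chi-square 6.21 to 43.1). Named shRNAs were the 2 with the largest log2 fold change in each direction among those called with plates that did not overlap, over the comparisons of lines. For the inhibitors, where none was called, the 2 with the smallest unadjusted p in each direction were named. The study's 6 TGFBR1 and TGFBR2 shRNAs were added.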

Additional observations from a re-analysis of the deposited data

Results flagged for a closer look

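UMSCC8 DMSO replicate 1 was far from the other 8 UMSCC8 libraries in both measures of the scarce shRNAs. It had 105 of the 132 at 0 counts, where the next library had 60, and this gap was 0.662 of the whole range of the 9 libraries. The 132 held 0.0396% of its counts, where the next lowest share was 0.107%, a gap of 0.658 of the range. Both gaps are above 0.493, Dixon's critical value for 9 values. This library entered the rule that chose the members, so its values are a description and not a test of it. In the whole table it had 328 shRNAs at 0, against 81 to 139 in the other 8 libraries of the line. Both ends of 6 sets of 9 libraries were examined, and chance flags about 1 set in 20. The measures come from the same counts and are not independent. No library of UMSCC1 or UMSCC25 stood apart in this way.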

How the results depend on the processing

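The 0 calls between inhibitors within each line were also 0 under every alternative run, among them DESeq2. The count of members called between lines on treated plates depended on the limit and the filter. For UMSCC1 against UMSCC25 it was 11, with 7 under filterByExpr, 5 for members under 10 CPM, 37 for members under 40 CPM, and 7 to 12 on leaving out 1 library. For UMSCC1 against UMSCC8 it was 14, with 7, 6, 42 and 11 to 17. For UMSCC8 against UMSCC25 it was 8, with 4, 1, 19 and 3 to 7, 12 with only the 12 libraries of these lines, and 5 with members chosen without UMSCC8 DMSO replicate 1. A lower limit or stricter filter leaves fewer members to test.

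Under the replicate block the counts were 9, 12 and 4 in the same order. No label says whether the numbers pair the plates. Deviations of same-numbered plates of a line correlated between -0.183 and 0.202, and those of other-numbered plates between -0.306 and 0.200. These values do not settle whether plates were paired. DESeq2 called 9, 11 and 7.

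The number of members was 163, with 96 under 10 CPM, 306 under 40 CPM and 154 to 168 on leaving out 1 DMSO library. The share of members also under the limit on treated plates was 92.6% in UMSCC1, 89.0% in UMSCC8 and 94.5% in UMSCC25. By the median of the treated plates it was 96.9% in UMSCC1 and 93.9% in UMSCC8. With a limit of 10 CPM it was 89.6%, 83.3% and 89.6%, and with 40 CPM it was 94.8% in UMSCC1. On leaving out 1 treated library it was 92.6% to 94.5%, 88.3% to 90.8% and 93.9% to 95.1%. These shRNAs have few counts per plate, and the size of difference that could be called for them was not tested.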
